A study of Mus musculus with 8 samples.

Results

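Trimethylation of lysine 9 on histone H3 (H3K9me3) was profiled with lot 58206 of the antibody Abcam Ab8898 in *Setdb1* conditional ES cells before (*T* = 0) and 6 days after (*T* = 6d) the start of *Setdb1* deletion. The 2 libraries made with this lot were taken out of the 8 libraries of the dataset by the antibody lot and time point in their names, and hold 17007854 of its 68947478 tags. Each library holds 8503927 tags, because the authors brought libraries of the same antibody to equal size. A tag is the mapped interval of 1 sequenced fragment, extended to 300 bp, in mm9 coordinates. Both libraries come from JM8 ES cells of the C57BL/6N strain that carry CreERT2 at *Rosa26*, 1 conditional *Setdb1* allele and 1 null allele. The *T* = 0 cells were untreated, and the *T* = 6d cells had been exposed to 0.8 µM 4′OHT for the first 48 h and then grown without it. The paper writes these genotypes *tm1c/tm2* and *tm1d/tm2*, the sample labels *tm1a/tm2* and *tm1c/tm2*. Control cells with a wild-type allele and input chromatin were not analysed here, so an effect of 4′OHT or of time in culture cannot be told apart from the loss of *Setdb1*. The labels do not say whether more than 1 clone or culture was used.

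Setdb1 is a histone methyltransferase that places H3K9me3 in euchromatic parts of the genome. KRAB zinc finger proteins bind particular DNA sequences and bring in KAP1 (TRIM28), which in turn recruits Setdb1. In ES cells this pathway marks endogenous retroviruses and imprinted control regions and keeps them silent. Antibodies against a methylated lysine can differ between lots in how strictly they recognise it, which is why a lot is followed here on its own and then set beside the other preparations. These are an Upstate-type antibody (*T* = 0, 2d, 4d and 6d) and lot 638466 of Ab8898 (*T* = 0 and *T* = 6d).

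Tag midpoints were counted in the 494475 windows of 5 kb on chromosomes 1 to 19. With lot 58206, 3321 windows lost tags between *T* = 0 and *T* = 6d and 3588 gained them, so this lot recorded falls and rises in similar number. The 418074 windows with at least 20 tags over both libraries were compared with Fisher's exact test (two-sided), and a change was called at a Benjamini-Hochberg adjusted *P* below 0.05 with a ratio over 1.5-fold. By this rule 0.794% of all tested windows were lower and 0.858% higher. The median ratio of *T* = 6d to *T* = 0 over all tested windows was 1. With a single library at each time the test compares libraries, its errors cover counting only, and no difference has a replicate check.

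The balance of falls and rises depended on the size and choice of the windows and on the rule for a call. In windows of 2 kb, 3409 were lower and 6220 higher, so that 64.6% of the calls were rises, against 51.9% in 5-kb windows. In windows of 10 kb the balance was the other way, with 3781 lower and 3048 higher (44.6% rises). With a change over 2-fold required, 3309 were lower and 2383 higher (41.9% rises), and at an unadjusted *P* below 0.01 the counts were 9335 and 8483 (47.6% rises). When the test was limited to the 18118 windows with an average of 2 or more times the median, 1023 were lower and 6452 higher. That filter adds up the tags of both times, so windows that rise pass it more easily than windows that fall. This split is therefore partly set by the filter. Scaled to the tags of background windows (below 1.5 times the median in both libraries), 3454 were lower and 4536 higher.

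The tags that left the lower windows and those that entered the higher windows were of different weight. The lower windows together held 141383 tags at *T* = 0 and 36358 at *T* = 6d, a ratio of 0.257, and went from 1.66% to 0.428% of the library. The higher windows together went from 162459 to 346902 tags, a ratio of 2.14, and from 1.91% to 4.08% of the library. These sums describe windows chosen for their change. At the limit of the call, the last lower window held 34 tags at *T* = 0 and 11 at *T* = 6d (adjusted *P* = 0.0499, Fisher's exact test), and the next one outside it held 19 and 3 (adjusted *P* = 0.0513). The last higher window held 43 and 81 tags, and the next one outside it 72 and 119.

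**Figure D1:**
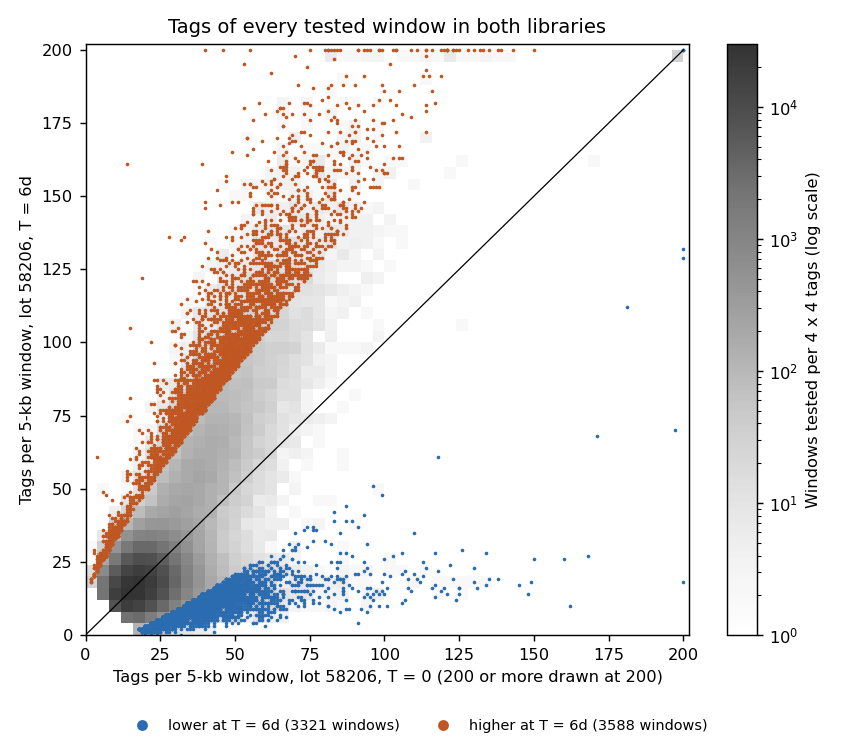
Tags of lot 58206 in each tested 5-kb window at *T* = 0 (horizontal axis) and *T* = 6d (vertical axis). Grey shading gives the number of windows on a log scale, coloured points are the 3321 lower and 3588 higher windows, the line marks equal tags, and windows with 200 or more tags are drawn at 200. The lower windows end in a flat band near the bottom of the plot, while the higher windows form a broad wedge that continues a grey cloud above the line.

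Lower windows were moderately marked at *T* = 0 and fell to less than the genome's typical level with this lot. They were chosen for their fall in these 2 libraries, so both levels are partly set by the call. With the other antibodies their median at *T* = 6d was 0.80 (Upstate-type) and 0.96 (lot 638466) times the library median. Their median was 37 tags at *T* = 0 and 9 at *T* = 6d, against a library median of 16 at both times. In units of the library median they went from 2.31 to 0.563. Of the 3321 windows, 952 held 1 to 2 times the median at *T* = 0, 1546 held 2 to 3 times, 690 held 3 to 5 times and 133 held 5 times or more. At *T* = 6d 85.3% lay below the median, among them all 952 that had held 1 to 2 times, and 11 still reached 3 times the median.

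Higher windows often lay above the library median with this lot at *T* = 0 already. At 2 or more times the median were 76.4% of them, against 5.59% of all tested windows. At 3 or more times it was 42.9% against 1.46%. The higher windows were chosen for their rise in these 2 libraries, so both levels are partly set by the call. Their median was 44 tags at *T* = 0 and 94 at *T* = 6d, or 2.75 and 5.88 times the library median. At *T* = 6d 2496 of them (69.6%) held 5 or more times the median. In 1540 windows the level was 3 or more times the median at both times, and 1671 crossed from under 3 times to 3 times or more. A smaller class of 374 (10.4%) lay below the median at *T* = 0, with a median of 8 tags that became 32.

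Tags of the lot were also more concentrated in strongly marked windows at *T* = 6d than at *T* = 0. How much of this came from the windows called higher was not tested. Windows at 3 or more times the median numbered 6103 at *T* = 0 and 11537 at *T* = 6d, with 4878 in both, and held 4.72% (exact binomial 95% interval 4.70 to 4.73%) and 11.1% (11.0 to 11.1%) of the tags. The median of whole numbers is a coarse measure at this depth. With 3 times the mean (17.5 tags at both times) as the limit, the shares were 3.57% and 10.2%. The corresponding shares at 3 times the median were 36.2% and 35.6% with the Upstate-type antibody and 0.610% and 0.236% with lot 638466. At this limit the share rose with lot 58206 and not with the others, while at 5 times the median it was 24.61% and 25.04% with the Upstate-type antibody and 0.946% and 5.66% with lot 58206.

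The windows that fell with lot 58206 were also marked, and also fell, with the antibodies that had no part in calling them. With the Upstate-type antibody, 60.5% of them held 3 or more times the median at *T* = 0, against 9.62% of all tested windows. Their median in its 4 libraries, in order of time, was 35, 23, 11 and 8 tags. With lot 638466 the median was 43 tags at *T* = 0 and 24 at *T* = 6d. The median level therefore dropped in steps over the Upstate-type time course and ended near or below the library median with each antibody. Part of the windows kept a high level with the Upstate-type antibody. At *T* = 6d 14.9% still held 3 or more times its median, against 9.37% of all tested windows. With lot 638466 it was 0.301% against 0.0263%.

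Calls in the other antibodies used a Fisher's exact test with *P* below 0.01 and a ratio over 1.5-fold. Of the 3321 lower windows, the Upstate-type antibody called 594 (17.9%) lower after 2 days, 1929 (58.1%) after 4 days and 2209 (66.5%) after 6 days. All tested windows were lower in 0.896%, 2.31% and 3.41% of cases at these times. With lot 638466, 1594 (48.0%) were lower at *T* = 6d, against 2.21% of all tested windows, and 0 were higher. Both other antibodies called 1390 windows (41.9%) lower at *T* = 6d, against 0.798% of all tested windows.

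At *T* = 6d, the windows that rose with lot 58206 had kept a similar level or lost tags with the other antibodies. Their median in the Upstate-type libraries, in order of time, was 14, 15, 14 and 14 tags. With lot 638466 it was 34 tags at *T* = 0 and 27 at *T* = 6d. At *T* = 6d the Upstate-type antibody called 111 of the 3588 higher windows (3.09%) higher and 97 (2.70%) lower, close to its shares of 2.24% and 3.41% over all tested windows. At *T* = 2d and 4d it called 149 (4.15%) and 84 (2.34%) of them higher, against 0.892% and 1.17% of all tested windows. An excess of called rises was thus seen at both times, the larger at *T* = 2d. Their summed Upstate-type tags were 80008, 94776, 83597 and 76592 in order of time. By *T* = 2d 56.7% of the higher windows had gained any Upstate-type tags, against 40.8% of all tested windows. By *T* = 4d it was 45.4% against 47.5%, so the excess at that time was seen in the calls only. Lot 638466 called 12 (0.334%) higher and 237 (6.61%) lower, against 1.17% and 2.21%. Higher with both other antibodies as well were 2 windows (0.0557%), against 0.0387% of all tested windows.

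**Figure D2:**
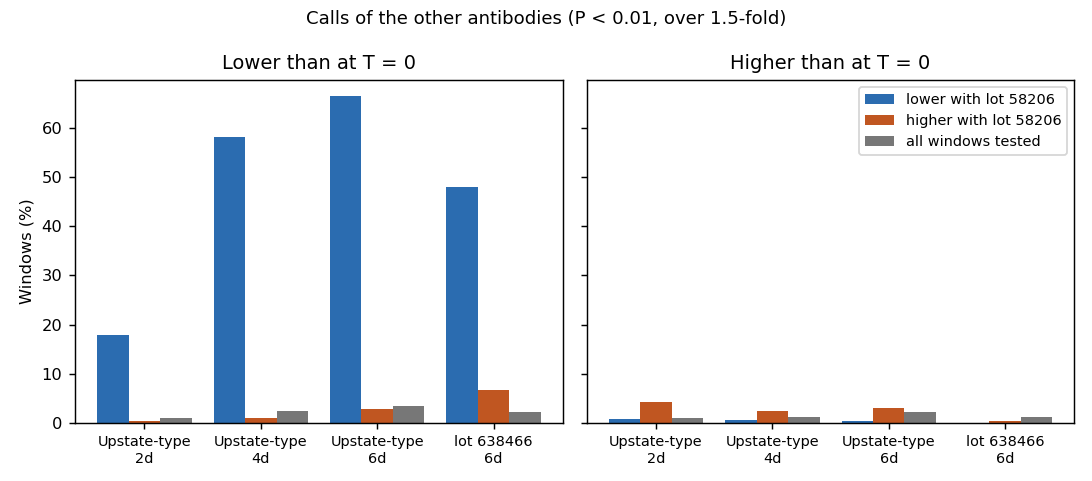
Share of windows (%) called lower (left) or higher (right) than at *T* = 0, for the Upstate-type antibody at *T* = 2d, 4d and 6d and for lot 638466 at *T* = 6d, for windows lower with lot 58206 (blue), windows higher with it (orange) and all windows tested (grey). The blue bars on the left rise from 17.9% at *T* = 2d to 66.5% at *T* = 6d, whereas no bar on the right exceeds 4.15%.

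The difference between antibodies was tested directly, with a Fisher's exact test on the *T* = 0 and *T* = 6d tags of a window in both antibodies (Benjamini-Hochberg adjusted *P* below 0.05). Over all windows with enough tags, the ratio of lot 58206 differed from that of the Upstate-type antibody in 1762 of 237601 (0.742%), and from that of lot 638466 in 1505 of 416331 (0.361%). Against lot 638466, lot 58206 had the higher ratio in 1421 of the 1505. Among the windows called higher, the ratio exceeded that of lot 638466 in 1001 of 3580 (28.0%) and that of the Upstate-type antibody in 377 of 2491 (15.1%), and was lower in 0. Among the windows called lower, 39 of 3313 (1.18%) differed from lot 638466 and 156 of 3014 (5.18%) from the Upstate-type antibody, 38 and 150 of them with the deeper fall in lot 58206. The calls and this test share the tags of lot 58206, so these shares describe the called windows. A window that does not pass this test is not thereby shown to behave alike with both antibodies.

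The small class that started below the median differed from the other rises. In these 374 windows the Upstate-type libraries had medians of 9, 9, 12 and 13 tags in order of time, and lot 638466 had 24 at *T* = 0 and 28 at *T* = 6d. Their summed tags were 3531 and 5378 in the Upstate-type libraries and 9229 and 10488 with lot 638466. The larger classes went the other way or stayed level. The 1540 windows marked at both times held 43877 and 39220 tags with the Upstate-type antibody and 58147 and 43374 with lot 638466.

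To measure the change at sites not picked by lot 58206, windows were taken where the pooled *T* = 0 tags of the other antibodies reached 3 times their median of 36. In these 10202 windows the median of lot 58206 was 21 tags at *T* = 0 and 15 at *T* = 6d. Their summed tags went from 294462 to 220375, a ratio of 0.748. By Fisher's exact test at *P* below 0.01 and 1.5-fold, 1387 windows (13.6%, exact binomial 95% interval 12.9 to 14.3%) were lower and 259 (2.54%, 2.24 to 2.86%) higher, while all tested windows were lower in 2.23% and higher in 2.03%. Falls of any size were seen in 7890 of the 10202 windows and rises in 1964, while 48.8% of all tested windows fell and 45.6% rose. Sites marked with the other antibodies therefore lost tags of this lot more often than they gained them.

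The share that fell depended on how strongly the other antibodies marked a window at *T* = 0. Below 0.5 times their median, the summed tags of lot 58206 gave a ratio of 1.12. The ratio was 1.01 in windows at 1 to 1.5 times, 0.843 at 2 to 3 times, 0.759 at 3 to 5 times and 0.645 at 5 to 10 times. The share of windows lower by the adjusted test went from 0.0199% in the lowest class to 19.3% of 886 windows at 5 to 10 times. Lot 58206 itself averaged 12.0 tags at *T* = 0 in the lowest class and 42.0 at 5 to 10 times. A fall could therefore be called less easily in the lowest class, and these shares depend partly on depth. Rises did not follow this order. The share higher was 0.192% in the lowest class, lay between 1.70 and 2.48% from 1.5 to 10 times the median, and was 0 of 48 windows above it. These 48 windows, of which 17 were lower, went from 19559 to 16077 tags. Among them was the window with the most tags in both libraries of the lot (chr17:39980001-39985000), with 2138 at *T* = 0 and 1183 at *T* = 6d.

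Falls came in longer stretches than rises. Neighbouring windows called in the same direction were joined, which gave 2890 lower and 3480 higher regions. Of the lower regions 88.9% were a single window, 70 spanned 3 windows or more and the longest spanned 55 kb. Of the higher regions 97.0% were a single window, 2 spanned 3 windows and the longest reached 15 kb. A lower window bordered another lower window in 22.7% of cases, a higher window bordered another higher window in 5.96%, and a lower window bordered a higher one in 1.48%.

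Tags beside the regions differed as well. Inside the lower regions the mean went from 8.51 to 2.19 tags per kb, with a library mean of 3.49 and 3.50. In the first kb outside the ratio of *T* = 6d to *T* = 0 was 0.589, in the second 0.750 and in the third 0.821, and from there to 20 kb it lay between 0.794 and 0.883. Beside the higher regions the ratio was 1.22 in the first kb and 0.963 in the second, and between 0.890 and 0.970 further out. Other called windows can lie in these flanks. Without them, an alternative chosen after the data were seen, the ratio beside lower regions was 0.580 in the first kb, 0.844 in the fifth and 0.879 at 20 kb, and beside higher regions it was 1.23 in the first kb and between 0.902 and 0.971 from there on. The ratio thus lay below 1 beyond the first kb beside both kinds of region, and lower beside the falls.

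**Figure D3:**
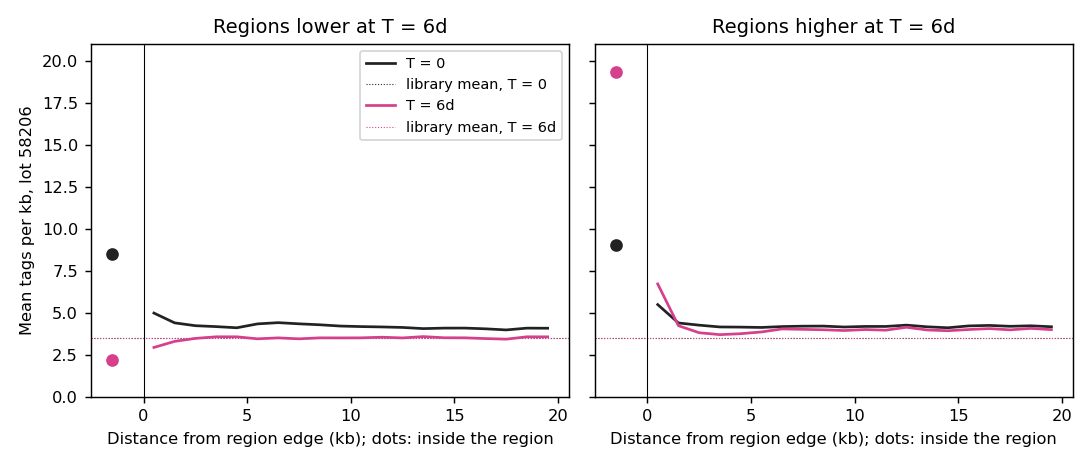
Mean tags of lot 58206 per kb at *T* = 0 (black) and *T* = 6d (pink) by distance from the edge of regions lower (left) or higher (right) at *T* = 6d. Dots give the mean inside the regions and dotted lines the mean of each library (3.49 and 3.50 tags per kb). Beside lower regions the *T* = 6d line runs below the *T* = 0 line over all 20 kb, and beside higher regions it is above it in the first kb alone.

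Within a 5-kb window the rises were narrow and sat in the part of the window where the Upstate-type antibody had few tags. The higher windows as a whole were not poor in its tags. At *T* = 0 21.9% of them held 3 or more times its median, against 9.62% of all tested windows. The kb with the most *T* = 6d tags of the window held 47.6% of the lot's tags at *T* = 6d and 40.2% at *T* = 0. An even spread gives 20% in a kb picked without the tags counted, and more in one picked as the fullest. The same kb held 9.63% of the window's tags with the Upstate-type antibody at *T* = 0 and 9.24% at *T* = 6d, well under the even share. With lot 638466 it held 22.8% at *T* = 0, a little above the even share, and 19.6% at *T* = 6d. The windows and the kb were chosen on libraries of lot 58206, so its own shares are a description. The narrow peak of the higher windows was thus present in this lot before treatment, where the Upstate-type antibody had fewer tags than in the rest of the window. In the 374 windows that started below the median the picture differed, with 35.2% of the *T* = 6d tags but 23.8% of the *T* = 0 tags in that kb, and 21.9% with the Upstate-type antibody at *T* = 0.

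Falls had a peak at *T* = 0 that the antibodies shared. The kb with the most *T* = 0 tags held 36.0% of the tags of lot 58206 in the lower windows at *T* = 0 and 25.2% at *T* = 6d. In the Upstate-type libraries it held 31.0%, 28.9%, 24.7% and 24.2% in order of time. With lot 638466 it held 29.7% at *T* = 0 and 24.9% at *T* = 6d. The kb was chosen on the *T* = 0 library of lot 58206, so a lower share of this lot at *T* = 6d follows from the choice. The shares of both other antibodies, which had no part in it, were also lower at *T* = 6d.

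**Figure D4:**
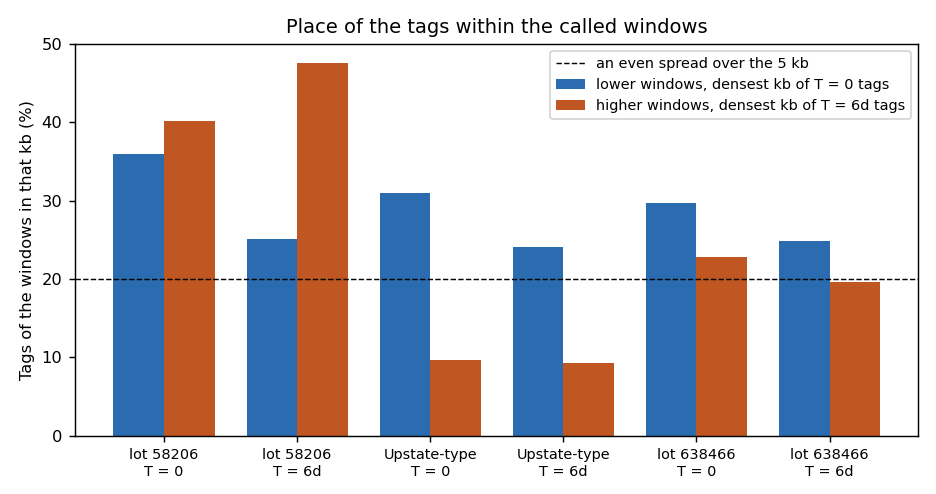
Share (%) of the tags of called 5-kb windows that lay in 1 kb of the window, chosen as the kb with the most *T* = 0 tags of lot 58206 for lower windows (blue) and the most *T* = 6d tags for higher windows (orange). The dashed line is an even spread, 20%, which the library that picked the kb would exceed even with evenly spread tags. Blue bars exceed the line in all 6 libraries, and orange bars exceed it in lot 58206 (40.2 and 47.6%) and fall to 9.63 and 9.24% with the Upstate-type antibody.

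Both kinds of window were spread over all chromosomes. The share of tested windows that were lower ranged from 0.528% on chromosome 19 to 1.05% on chromosome 13, and the share higher from 0.610% on chromosome 14 to 1.31% on chromosome 11 and 1.29% on chromosome 17. Stretches of at least 1.5 kb without a tag midpoint in any of the 8 libraries, as left by assembly gaps and by repeats without unique sequence, occurred in 10.6% of the lower windows, 0.725% of the higher windows and 2.25% of all tested windows. The lower windows were therefore more often next to a stretch without tags, and the higher windows less often. The first Mb with tags on a chromosome held 1.45% of the lower and 1.39% of the higher windows, against 0.677% of all tested windows. What these windows contain (genes, retroviral elements) was not analysed here, because the reference at hand is of another build.

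The largest falls are named by their position in mm9, ranked by log2 of the tags per window with 10 added at each time. The leading region, chr4:106055001-106075000, is a 20-kb stretch of 4 windows that held 501 tags at *T* = 0 and 55 at *T* = 6d. Its ratio was 0.110 (95% interval 0.0815 to 0.145, Fisher's exact test *P* = 4.48e-91). Its Upstate-type tags were 795, 648, 277 and 297 in order of time, and with lot 638466 it held 401 and then 108. The fall was seen with every antibody but was deepest with lot 58206, and the difference passed the test against both others (adjusted *P* = 9.69e-16 and 2.13e-06, Fisher's exact test).

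The window chr6:124900001-124905000 followed, with 121 tags at *T* = 0 and 14 at *T* = 6d, a ratio of 0.116 (0.0614 to 0.202). Its Upstate-type tags went through 116, 35, 20 and 10 over the time course, so that most of the fall was in place by *T* = 2d. Here the ratio did not pass the test of a difference from either other antibody (adjusted *P* = 0.556 and 0.134, Fisher's exact test). The window chr1:180155001-180160000 went from 107 to 12 tags, a ratio of 0.112. With the Upstate-type antibody it held 129, 75, 19 and 28 tags.

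The next fall lay at chr9:122765001-122770000, where lot 58206 went from 125 to 16 tags (ratio 0.128). The Upstate-type libraries held 231, 172, 128 and 81 tags in order of time, a ratio of 0.351 at the end. The window chr16:4740001-4745000 went from 88 to 9 tags with lot 58206 (ratio 0.102), and contains a stretch without tags in any library.

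At chr18:49855001-49860000 lot 58206 went from 64 to 5 tags, a ratio of 0.0781 (0.0245 to 0.192). Lot 638466 held 53 tags and then 30 there, a ratio of 0.566. The fall with lot 58206 was deeper than with lot 638466 (adjusted *P* = 6.19e-05, Fisher's exact test), and the Upstate-type antibody, with 80, 100, 31 and 22 tags, lay between them at *T* = 6d with a ratio of 0.275.

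The remaining leading falls were of the same kind. The window chr1:133025001-133030000 went from 96 to 12 tags and chr13:114355001-114360000 from 67 to 6. The window chr12:20810001-20815000 went from 57 to 4 tags, and chr16:22030001-22040000 from 164 to 19. Among these 4 the Upstate-type ratio at *T* = 6d was lowest on chromosome 13 (0.0690, from 58 to 4 tags) and highest on chromosome 1 (0.356, from 177 to 63).

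The longest falls held more tags but fell a little less far. On chromosome 10, 55 kb (chr10:82870001-82925000) went from 952 to 175 tags, a ratio of 0.184 (0.156 to 0.216). On chromosome 4, 35 kb close to the end of the chromosome (chr4:155525001-155560000) went from 607 to 98 tags, a ratio of 0.161. There the Upstate-type antibody held 868, 517, 385 and 453 tags, and its ratio of 0.522 at *T* = 6d differed from that of lot 58206 (adjusted *P* = 1.65e-22, Fisher's exact test). On chromosome 16, 35 kb (chr16:22380001-22415000), which lies near the region named above on that chromosome, went from 831 to 160 tags.

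Across these 13 regions the ratio was below 1 with all 3 antibodies. The ratio of lot 58206 differed from that of the Upstate-type antibody in 9 regions and from that of lot 638466 in 9, with *P* adjusted over the 60 comparisons made for the named regions and boxes. In each of these the fall was deeper in lot 58206, the lot in which the regions were picked as the largest.

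Windows without any tag at *T* = 6d were looked for after the values were seen, and 4 were found. The window chr18:24640001-24645000 went from 32 tags to 0, at least 10.7-fold lower if 3 tags are taken as the limit that a count of 0 allows. The window chr1:120045001-120050000 went from 24 to 0 (at least 8-fold lower), chr12:18560001-18565000 from 22 to 0 (at least 7.33-fold) and chr4:120845001-120850000 from 20 to 0 (at least 6.67-fold). The other antibodies retained tags in each of them, between 1 and 10 in the Upstate-type library and between 4 and 11 in that of lot 638466 at *T* = 6d.

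By the same ranking, the first rise lay at chr18:10040001-10045000, where lot 58206 went from 14 tags at *T* = 0 to 161 at *T* = 6d. The ratio was 11.5 (6.66 to 21.5, Fisher's exact test *P* = 7.76e-33). The Upstate-type antibody rose there as well, with 21, 39, 70 and 74 tags in order of time. Lot 638466 held 32 and 39 tags. The rise was larger with lot 58206 than with either (adjusted *P* = 0.00384 and 1.53e-09, Fisher's exact test).

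Several other rises were shared with the Upstate-type antibody. At chr11:101485001-101490000 lot 58206 went from 46 to 276 tags, a ratio of 6 (4.38 to 8.39), and the Upstate-type antibody through 22, 46, 70 and 86. The window chr17:17640001-17645000 went from 15 to 105 tags, and through 9, 19, 25 and 27 with the Upstate-type antibody. The window chr3:144610001-144615000 went from 15 to 81 tags, and through 8, 15, 32 and 30. At chr14:73635001-73640000 lot 58206 went from 39 to 161 tags and the Upstate-type antibody through 12, 29, 31 and 30. In these 4 windows the difference between both antibodies did not pass the test (adjusted *P* between 0.144 and 0.496, Fisher's exact test), whereas each differed from lot 638466.

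Other leading rises had no counterpart. At chr3:93930001-93935000 lot 58206 went from 4 to 61 tags, a ratio of 15.3 (5.66 to 57.8), the highest ratio among the named rises. The Upstate-type antibody held 6, 3, 8 and 6 tags in this window and lot 638466 held 15 and 13. The window chr8:125695001-125700000 went from 40 to 208 tags with lot 58206, with 47, 35, 61 and 55 tags of the Upstate-type antibody and a decrease from 53 to 31 with lot 638466. The window chr15:38905001-38910000 went from 28 to 136 tags, while the Upstate-type antibody held 13 at *T* = 0 and 14 at *T* = 6d. All 3 differed from both other antibodies (the largest adjusted *P* was 0.00169, Fisher's exact test).

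The window chr9:57325001-57330000 went from 19 to 122 tags with lot 58206, and from 19 to 42 in the Upstate-type libraries. The window chr3:96120001-96125000 went from 6 to 49 tags with lot 58206, and from 13 to 23 in the Upstate-type libraries. Both rises exceeded those of the Upstate-type antibody (adjusted *P* = 0.00938 and 0.0120, Fisher's exact test). With lot 638466 both windows lost tags, from 27 to 20 and from 15 to 10.

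The longest rises were moderate. The 15 kb of chr7:52100001-52115000 went from 141 to 319 tags, a ratio of 2.26 (1.85 to 2.78). There the Upstate-type antibody held 95 tags at *T* = 0 and 101 at *T* = 6d, and lot 638466 held 128 and 73. The 15 kb of chr2:180435001-180450000, 1.30 Mb from the last tag of the chromosome, went from 189 to 328 tags, while the Upstate-type antibody went through 170, 247, 247 and 135. The 10 kb of chr11:69205001-69215000 went from 71 to 223 tags, with 23, 42, 42 and 52 tags of the Upstate-type antibody.

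Over the 13 named rises the ratio of lot 58206 differed from that of lot 638466 in all 13 and from that of the Upstate-type antibody in 8. At or below 1 were 10 of the ratios with lot 638466 and 2 with the Upstate-type antibody. Of the 3588 higher windows as a whole, 38.9% gained any Upstate-type tags by *T* = 6d, fewer than the 48.6% of all tested windows.

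**Figure D5:**
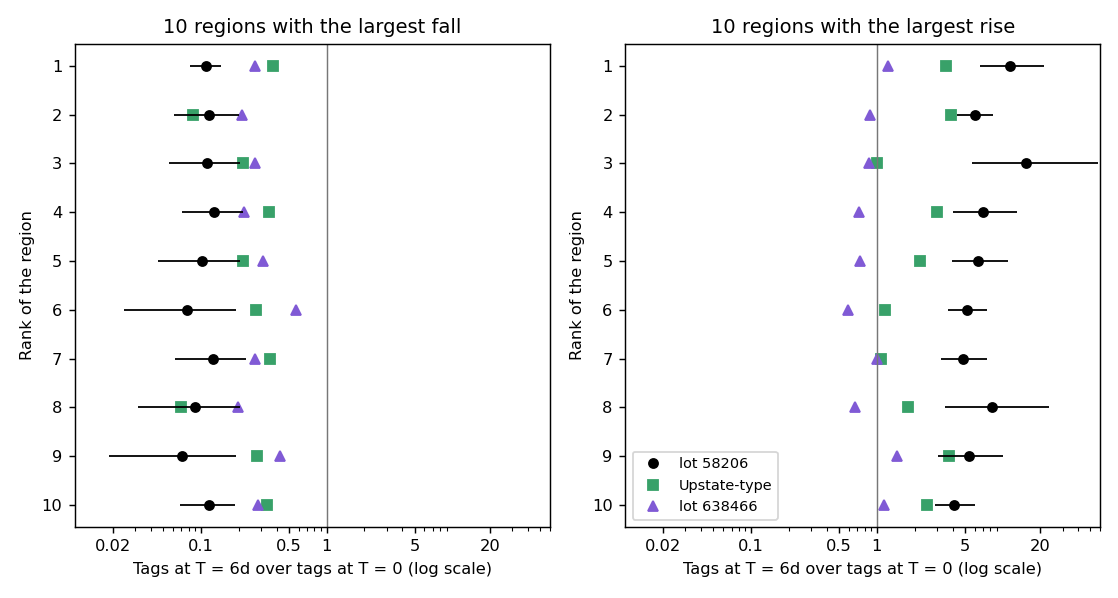
Ratio of tags at *T* = 6d to tags at *T* = 0 (log scale) for the 10 regions with the largest fall (left) and the largest rise (right) with lot 58206, in order of rank. Circles are lot 58206 with the 95% interval of the ratio from counting error, squares the Upstate-type antibody and triangles lot 638466. Every ratio on the left is below 1. On the right the triangles lie between 0.585 and 1.44 around the line at 1, and the squares between 1 and 3.91.

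The loci drawn in the study's browser plot were read from this lot in more detail. Box limits were read from the plot's axes to the nearest kb. *H19* is an imprinted non-coding RNA gene whose control region is methylated on the paternal chromosome, and the 6-kb box beside it (chr7:149764001-149770000) went from 70 tags (95% Poisson interval 54.6 to 88.4) to 23 (14.6 to 34.5). All 6 of its 1-kb bins held fewer tags at *T* = 6d, while the stretch of equal length to its left held 23 and 30 tags and that to its right 31 and 19. On the left side the fall thus stopped at the box in these counts. The ratio of 0.329 passed the test (*P* = 1.10e-06, Fisher's exact test).

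The box at *Olfr901*, an olfactory receptor gene (chr9:38216001-38236000), went from 161 tags to 51, with fewer tags in 18 of its 20 bins and more in 2. Its flanks of equal length fell as well, from 62 to 40 on the left and from 58 to 33 on the right. The box at *Cdh3*, which encodes P-cadherin (chr8:108962001-109031000), went from 334 tags to 196, with 36 bins lower and 11 higher. The fall was uneven over this box. Of its 15 windows of 5 kb, 12 held enough tags to be tested and 2 were lower. The largest falls lay in neighbouring 1-kb bins near the right end, from 22 to 3 tags and from 26 to 4. A stretch inside the box held no tag at either time. The left flank of the *Cdh3* box held 356 and 369 tags and its right flank 397 and 326. The ratios of 0.317 and 0.587 passed the test (*P* = 1.77e-14 and 2.18e-09, Fisher's exact test). Both boxes fell less with lot 58206 than with the Upstate-type antibody, whose ratios were 0.0939 and 0.308 (adjusted *P* = 8.82e-05 and 1.19e-04, Fisher's exact test). The control box on chromosome 4 (chr4:3015001-3020000) held 77 and 72 tags, and its ratio of 0.935 (0.669 to 1.31) did not pass the test (*P* = 0.743, Fisher's exact test).

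Over longer distances the libraries differed by smaller ratios, and the rises were mostly shared by all antibodies. In bins of 1 Mb, called at an adjusted *P* below 0.05 (Fisher's exact test) with a ratio over 1.1-fold, 425 of 2390 bins (17.8%) were lower and 482 (20.2%) higher. Ratios ranged from 0.607 to 1.47, with 95% of the bins between 0.815 and 1.25. Scaled to background windows, an alternative chosen after the data were seen, 266 bins were lower and 668 higher.

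Of the 425 lower bins, 328 (77.2%) were lower with the Upstate-type antibody and 197 (46.4%) with lot 638466, against 27.4% and 23.6% of all bins. Lower with both were 142 (33.4%), against 11.7% of all bins, and 39 (9.18%) were higher with lot 638466. Of the 482 higher bins, 448 (92.9%) were higher with the Upstate-type antibody and 373 (77.4%) with lot 638466, against 31.9% and 34.3%. Rises over 1 Mb were thus shared between antibodies. In 360 bins (74.7%) the rise was called with all 3, against 21.2% of all bins with both other antibodies. In 5-kb windows few rises were called with the other antibodies. Those calls needed over 1.5-fold at *P* below 0.01 (Fisher's exact test), the bins over 1.1-fold. The higher windows held a median of 14 Upstate-type tags at *T* = 0, so moderate rises could escape a call. Shares of calls in bins and in windows are not directly comparable. With the Upstate-type antibody 38.9% of the higher windows gained any tags, against 48.6% of all tested windows. With lot 638466 it was 22.9% against 50.1%.

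The bin with the largest rise, from 69 to 70 Mb on chromosome 15, went from 2394 to 3508 tags with lot 58206, a ratio of 1.47 (1.39 to 1.54). The Upstate-type antibody went through 1536, 1529, 2237 and 2664 tags there and lot 638466 from 3103 to 4082. This bin contained 2 windows called higher and 0 called lower. The bin from 105 to 106 Mb on chromosome 8 went from 3435 to 5008 tags, and through 1829, 2106, 3183 and 3853 with the Upstate-type antibody. The bin from 110 to 111 Mb on chromosome 6 went from 2273 to 3192 tags without any window called. Few windows of these bins passed the call on their own, and with the Upstate-type antibody most of the rise came after *T* = 2d.

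The largest falls over 1 Mb lay on chromosome 13 from 66 to 67 Mb, which went from 737 to 447 tags (ratio 0.607, 0.538 to 0.683), and in neighbouring bins of chromosome 4. The bin from 146 to 147 Mb went from 3343 to 2134 tags with 12 windows called lower and 1 higher, and the bin from 145 to 146 Mb from 2165 to 1400 tags with 9 lower. With the Upstate-type antibody these bins of chromosome 4 first gained tags by *T* = 2d and had lost them by *T* = 6d, 3848, 4343, 3920 and 3138 in the first and 3041, 4063, 3500 and 2716 in the second. Lot 638466 was lower in all 3 bins, with ratios of 0.634, 0.727 and 0.741.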

How the data were processed

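The authors mapped reads uniquely with at most 1 mismatch, equalised libraries within an antibody and deposited tag intervals of 300 bp in mm9 without strand or values per region. No interval repeats within a library, and 0 columns were set aside. The aligner is not given in the sources used here. Identical intervals at *T* = 0 and *T* = 6d of lot 58206 made up 0.720% of its tags.

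Tag midpoints were counted in 5-kb windows (Python 3.11.15, numpy 2.4.6, pandas 2.3.3, numba 0.67.0). Fisher's exact test was computed in numba, checked against scipy 1.17.1 and tested on simulated data. Intervals are 95% (Clopper-Pearson for shares, exact Poisson for tags, exact conditional binomial for ratios) and cover counting error only. Enriched windows were set on the *T* = 0 libraries of the other antibodies. Named regions were the 10 largest falls and rises, the 3 longest each way, the 4 boxes of the locus plot and 3 bins of 1 Mb each way. Bins needed 1000 tags over both libraries. Figures were drawn with matplotlib 3.10.9. The windows, lists and tests were chosen with earlier results of these data known. Alternatives covered window size and offset, tag placement, filters, call rules, enrichment limits, scaling and chromosome X. Gene annotation and sequence were not used, since the reference is of another build.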

Additional observations from a re-analysis of the deposited data

Results flagged for a closer look

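The ratio of *T* = 6d to *T* = 0 differed between lot 58206 and another antibody, by the Fisher's exact test of the difference itself, in the following results. Against the Upstate-type antibody 1762 of all windows differed, among them 156 of the lower and 377 of the higher windows. Against lot 638466 it was 1505, among them 39 lower and 1001 higher windows. Of the 13 named falls, 9 differed from the Upstate-type antibody and 9 from lot 638466. Of the 13 named rises, 8 differed from the Upstate-type antibody and 13 from lot 638466. The boxes at *Olfr901* (ratio 0.0939 with the Upstate-type antibody and 0.317 with lot 58206) and *Cdh3* (0.308 and 0.587) differed as well. Antibody and library change together in each of these comparisons, so they cannot be told apart.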

How the results depend on the processing

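No paired analysis was possible because each antibody has a single library at each time and the labels give no replicate numbers. Of 128 values under alternatives 99 were classed as unchanged. For counts and shares of windows or bins this means within 1.5 times, for shares of tags within the counting interval. For boxes and named regions it means the same call. Direction was checked for the boxes and the 26 named regions only, and none was reversed. The balance of falls and rises did change side, from 51.9% rises to 44.6% in windows of 10 kb and 41.9% over 2-fold. The causes of the other changes were not tested. Windows higher numbered 6220 at 2 kb and 2383 over 2-fold. With windows averaging 2 times the median, a filter that rising windows pass more easily, the counts were 1023 lower and 6452 higher. At a *P* below 0.01 without adjustment they were 9335 and 8483. Of the independently marked windows, 0.885% were higher at 2 kb and 4.64% at 10 kb. The share lower was 26.6% at 5 times the median, 8.67% by adjusted *P* and 8.004% when chosen on both times, and 69.2% (0.901% higher) when chosen on lot 638466 at *T* = 0. The tags in windows at the limit, at *T* = 0 and *T* = 6d, were 8.54% and 12.6% at 2 kb, 1.93% and 7.91% at 10 kb, 12.5% and 15.7% at 2 times, 0.946% and 5.66% at 5 times the median, and 3.57% and 10.2% at 3 times the mean. With tags placed by their start the *T* = 0 share was 4.01%, and with windows moved by 2.5 kb the *T* = 6d share was 11.0%. At 10 kb, 3128 windows differed from the Upstate-type antibody. Bins of 2 Mb gave 166 lower and 194 higher, and 266 bins of 1 Mb were lower after scaling to background windows. Depth limits what could fall: 0 of the lower windows lay below the library median of 16 tags at *T* = 0.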
